A study of Rattus norvegicus with 6 samples.

Results

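The genes described here make serine, pass its carbon to folate, or belong to the amino acid and stress response driven by the transcription factor ATF4. They are Phgdh, Psat1, Psph, Shmt2, Mthfd2, Asns, Atf4, Ddit3, Trib3 and Chac1, and their probes were found by the RefSeq transcript that each probe is listed under. All 10 had a probe, out of 15645 gene symbols on the array, and together they had 19 probes. The samples were renal cortex of male Sprague-Dawley rats, obtained at 5 weeks of age and dosed for 4 weeks. The treated animals (3) were given chlorothalonil, a chlorinated fungicide, at 500 mg/kg/day, and the controls (3) were given corn oil. Each animal gave 1 Agilent 1-colour array, and the design text counts the animals of a group as biological replicates. Beyond strain, sex, diet and housing, which both groups shared, the labels name no allele. The only other agent they name is ethylenediamine dihydrochloride, as the source name of chlorothalonil replicate 3.

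Cells make serine from a glycolytic intermediate through the enzymes PHGDH, PSAT1 and PSPH in turn, and mitochondrial SHMT2 and MTHFD2 then move a carbon of serine onto folate. The kidney is known as an organ that releases serine into the blood. When amino acids run short, or when the endoplasmic reticulum or mitochondria are stressed, phosphorylation of the translation factor eIF2 raises the making of ATF4 protein, which switches on genes for amino acid supply and, under lasting stress, Ddit3, Trib3 and Chac1. In human lung cancer cells, NRF2, the regulator of detoxification genes, is known to act on serine synthesis genes through ATF4. ATF4 is controlled largely at translation, which these arrays do not measure.

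Between 40960 and 41711 of 61537 probes were well above background on the chlorothalonil arrays, and between 38234 and 41108 on the corn oil arrays. All chlorothalonil arrays lay on 1 slide and all corn oil arrays on another, scanned on different days, so slide and treatment cannot be told apart in any value here. For chlorothalonil replicate 3 the source name reads ethylenediamine dihydrochloride, against chlorothalonil in every other label of that array. It was kept, and the reported fit was also run without it. Each of the 10 proximal tubule markers exceeded background clearly on the 6 arrays, and none of the 3 adrenal markers was kept. Of the marker lists of other kidney and blood cells, none had a gene past the threshold. The groups did not overlap for 27.6% of all features, and for all 5 red blood cell markers, which were higher with chlorothalonil. The markers had adjusted p between 0.0598 and 0.306 in limma. Their mean log2 signal lay between 3.07 and 3.17 on the chlorothalonil arrays and between 2.64 and 2.84 on the corn oil arrays, and its part in the results below was not tested.

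Of the 10 genes, Psph fell with chlorothalonil and the other 9 did not pass the threshold in either direction. The threshold was an adjusted p of 0.05 in limma, over all 31098 features tested. For comparison, 3.15% of all features passed in either direction, and 1.87% passed and were lower with chlorothalonil. Of the 11926 features with a gene symbol, 255 passed, 172 of them higher and 83 lower. Levels are given as log2 of the processed signal relative to the array's 75th percentile, and a fold change is the chlorothalonil mean minus the corn oil mean on that scale. On its brightest kept probe, no gene of the 10 had a 2-fold change inside its 95% interval. The log2 intervals of dimmer probes of Mthfd2 (up to 1.67 and 1.52) and Chac1 (up to 1.76) did hold a 2-fold rise. The median log2 fold change of the 10 was 0.04, against 0.00 over all features. In whole cortex, fewer cells of a type and less RNA per cell cannot be told apart.

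**Figure D1:**
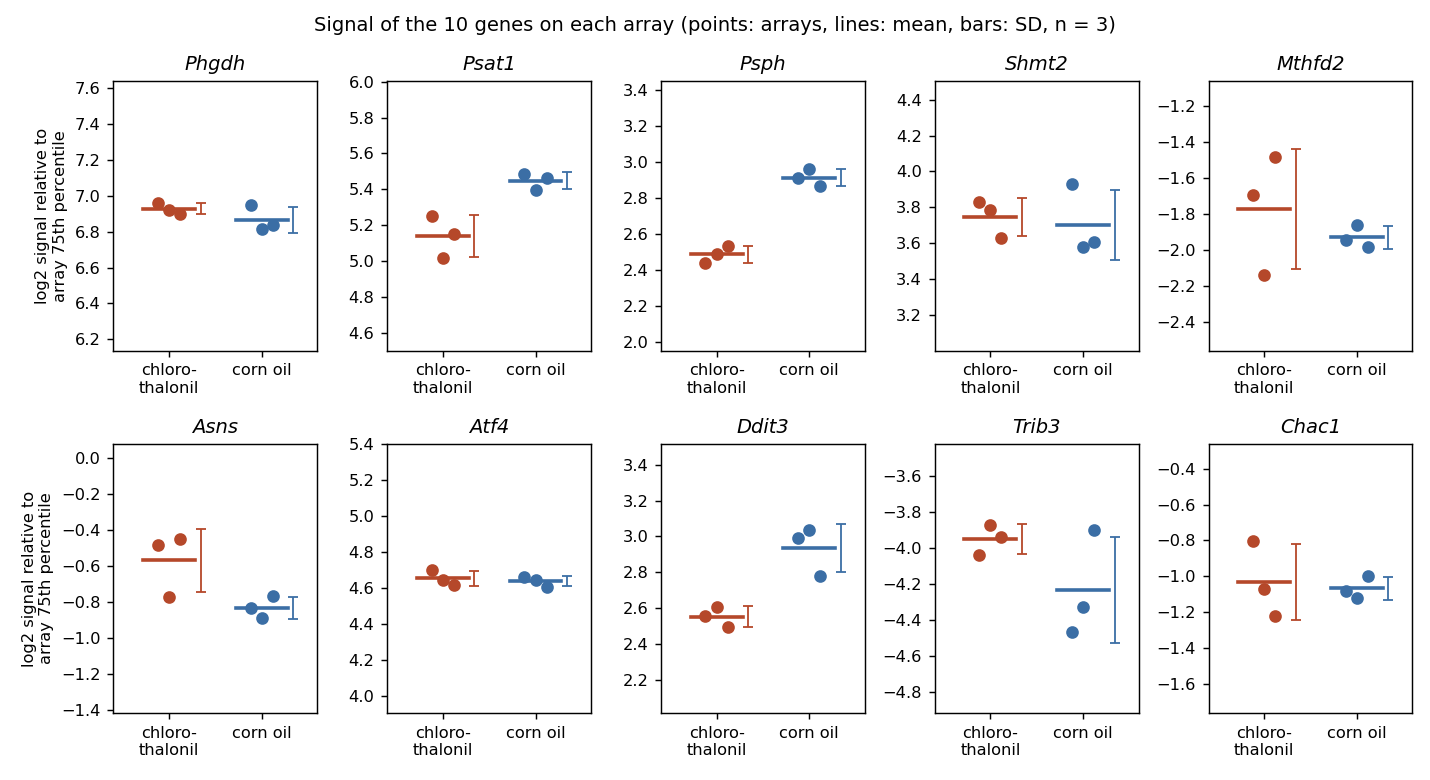
Log2 signal of the 10 genes relative to the array's 75th percentile (y axis, every panel spanning the same range), for chlorothalonil (left, red) and corn oil (right, blue). Points are arrays, lines means and bars the SD of 3 arrays. The groups do not overlap for Psat1, Psph and Ddit3, all lower with chlorothalonil, while those of Phgdh, Shmt2 and Atf4 lie on top of each other.

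Psph, phosphoserine phosphatase, which frees serine in the last step of the pathway, was measured by 1 probe (transcript NM_001009679). Its processed signal was 4831, 5200 and 4861 on the chlorothalonil arrays, against 6745, 7461 and 6765 on the corn oil arrays. On the log2 scale this was 2.44, 2.48 and 2.53 with chlorothalonil, against 2.91, 2.96 and 2.86 with corn oil. Every treated array lay below every control array, and the arrays of each group lay close together. Its log2 fold change was −0.43 ± 0.06 (SE), with a limma adjusted p of 0.0324. That left the gene at 74.4% of its corn oil level, with a 95% interval from 0.668-fold to 0.829-fold. With any single array left out the fold change stayed between −0.45 and −0.40, but the adjusted p lay between 0.0855 and 0.120 and the call was lost. Without chlorothalonil replicate 3 it was −0.45, with an adjusted p of 0.0869. Scaling to the array median also ended the call, at −0.37 with an adjusted p of 0.0584.

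Psat1, phosphoserine aminotransferase, makes the substrate of Psph. Its brighter probe gave 5.25, 5.02 and 5.15 with chlorothalonil, against 5.49, 5.40 and 5.46 with corn oil. The groups did not overlap, and the treated arrays were all lower. Its fold change of −0.31 ± 0.08 (SE) had a limma adjusted p of 0.122, so the gene did not pass. Its interval ran from −0.51 to −0.11. The other Psat1 probe gave −1.21, −1.45 and −1.36 with chlorothalonil, against −0.75, −1.65 and −1.16 with corn oil. On that probe the corn oil arrays alone spanned the whole range of the treated ones, and its fold change of −0.15 ± 0.23 turned to 0.07 without corn oil replicate 1.

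Phgdh, phosphoglycerate dehydrogenase, opens the pathway. Its log2 signal was 6.96, 6.92 and 6.90 with chlorothalonil, against 6.95, 6.82 and 6.83 with corn oil, on the probe used for the gene. The groups overlapped and all 6 arrays lay within a narrow band. On the log2 scale the fold change was 0.06 ± 0.07 (SE), with an interval from −0.10 to 0.22, which is from 0.932-fold to 1.17-fold. The other Phgdh probe gave 0.06 ± 0.07. With quantile normalization both probes turned to −0.02 and −0.03, and neither passed under any setting. The gene table names 8 pseudogenes of the 10 genes, copies of Phgdh, Psat1 or Shmt2, so some signal of these probes may come from such copies. Psph fell while Phgdh did not pass, but the difference between their fold changes was not tested.

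Shmt2, the mitochondrial serine hydroxymethyltransferase, splits serine into glycine and a folate-bound carbon. It gave 3.83, 3.78 and 3.63 with chlorothalonil, against 3.93, 3.58 and 3.61 with corn oil. Corn oil replicate 1 was the highest array of all, and the other two corn oil arrays were the lowest. The log2 fold change was 0.04 ± 0.12 (SE), with an interval from −0.25 to 0.34 and a limma adjusted p of 0.877. It turned to −0.02 without corn oil replicate 2, to −0.01 without corn oil replicate 3 and to −0.08 with normexp.

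Mthfd2, the mitochondrial methylenetetrahydrofolate dehydrogenase and cyclohydrolase, had 5 probes. The brightest gave −1.70, −2.14 and −1.48 with chlorothalonil, against −1.94, −1.86 and −1.99 with corn oil. Treated replicate 2 lay below all control arrays and the other two treated arrays above them. The treated SD was 0.33, against 0.06 in controls, and the log2 fold change was 0.16 ± 0.17 (SE). It was 0.01 without chlorothalonil replicate 3, 0.34 without chlorothalonil replicate 2 and 0.40 as the mean over its kept probes, and it did not pass in any of these. A pair of the other probes, both well above background on all 6 arrays, gave 0.09 ± 0.19 and 0.14 ± 0.15. The remaining probes gave 0.72 ± 0.38 and 0.87 ± 0.26, with limma adjusted p of 0.376 and 0.161 over all probes. These were well above background on all 3 chlorothalonil arrays but on 2 and 1 corn oil arrays, so they were kept through the treated group and a higher value there is built into the choice. With normexp they gave 0.14 and 0.25. The mean of 0.40 over the kept probes includes both of them.

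**Figure D2:**
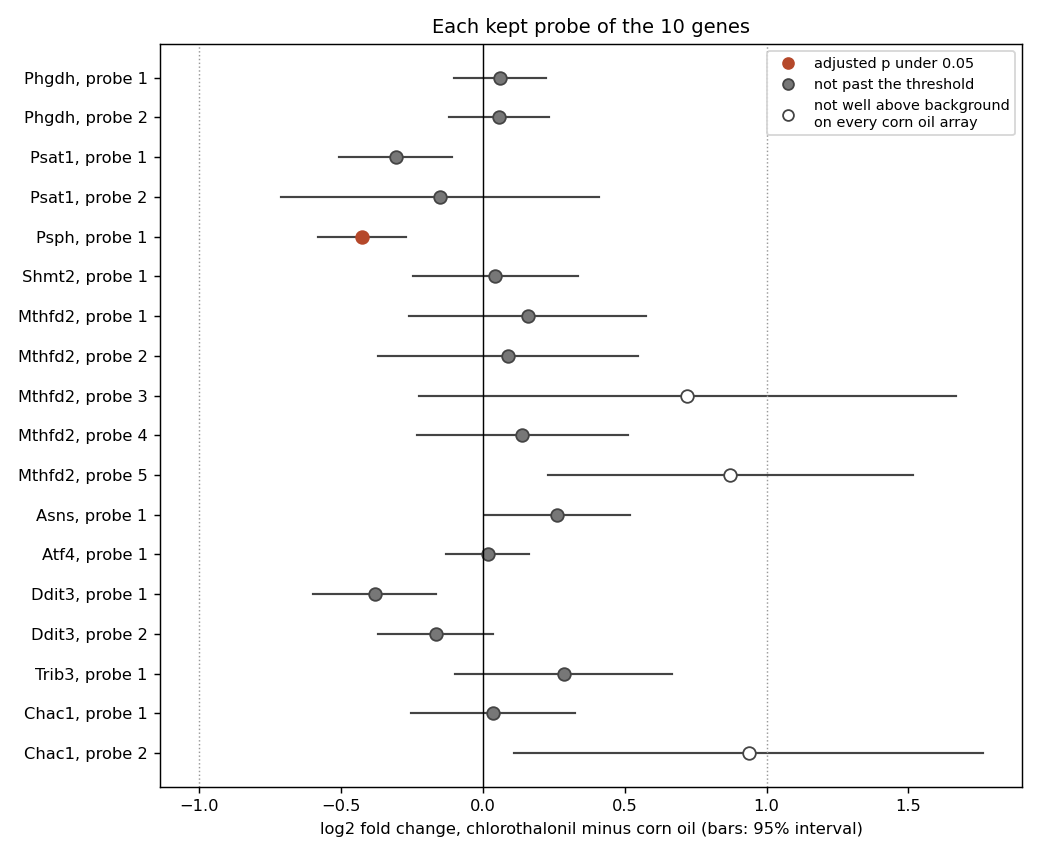
Log2 fold change, chlorothalonil minus corn oil (x axis), of the 18 kept probes of the 10 genes, numbered within a gene by brightness, with 95% intervals as bars. The red point is Psph at −0.43. The open points are the probes of Mthfd2 and Chac1 that were not well above background on every corn oil array, at 0.72, 0.87 and 0.94.

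Over probes, 1 of 18 kept probes passed, that of Psph, where 2.67% of 39862 probes passed in either direction. The groups did not overlap for 6 of the 18, where that share was 27.1% of all probes. Of these 6, 4 were lower with chlorothalonil, on Psph, on the brighter Psat1 probe and on both Ddit3 probes. The 2 higher ones, on Mthfd2 and Chac1, were among the probes kept through the chlorothalonil arrays alone. Counted by gene, 3 of 10 did not overlap, against 27.6% of all features.

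Asns, asparagine synthetase, is a classic target of ATF4. It gave −0.48, −0.77 and −0.45 with chlorothalonil, against −0.84, −0.89 and −0.77 with corn oil. Treated replicates 1 and 3 were above all controls, and treated replicate 2 lay within the control range. Asns thus had a log2 fold change of 0.26 ± 0.10 (SE), with an interval from 0.01 to 0.52. Its unadjusted limma p was 0.0468 and its adjusted p 0.248. Over all features, 6094 of 31098 had an unadjusted p under 0.05.

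Atf4 itself was measured by 1 probe, and its fold change was the nearest to 0 of the 10. It gave 4.70, 4.65 and 4.62 with chlorothalonil, against 4.66, 4.65 and 4.61 with corn oil. The log2 fold change was 0.02 ± 0.06 (SE), with an interval from −0.13 to 0.16, or 0.914-fold to 1.12-fold. With quantile normalization and with normexp it was −0.02, and without chlorothalonil replicate 1 it was −0.01. Its sign is therefore not settled at this size.

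Ddit3 encodes CHOP, a transcription factor of lasting endoplasmic reticulum stress. Its brighter probe, listed under transcript NM_001109986, gave 2.56, 2.61 and 2.50 with chlorothalonil, against 2.99, 3.04 and 2.78 with corn oil. All treated arrays lay below all controls. Ddit3 had a log2 fold change of −0.38 ± 0.09 (SE), which is 76.8% of the corn oil level, with an interval from −0.60 to −0.16. The limma adjusted p of 0.0921 did not pass the threshold. It was 0.0436 with a robust variance prior that follows the signal level, the only one of 16 alternative settings in which this gene passed. The probe of the other transcript, NM_024134, gave −0.22, −0.22 and −0.27 with chlorothalonil, against 0.03, −0.02 and −0.21 with corn oil. Its groups did not overlap either, but only narrowly, at −0.218 for chlorothalonil replicate 1 and −0.213 for corn oil replicate 3. The fold change of this probe was −0.17 ± 0.08, with a limma adjusted p over all probes of 0.342.

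Trib3, a pseudokinase that ATF4 and CHOP are known to induce, was dim. It gave −4.04, −3.87 and −3.94 with chlorothalonil, against −4.47, −4.33 and −3.90 with corn oil. Corn oil replicate 3 stood with the treated arrays and the other two controls lay below them. Its fold change was 0.28 ± 0.16 (SE), with a limma adjusted p of 0.380, and it did not pass under any setting run. It was 0.45 without corn oil replicate 3, 0.17 without corn oil replicate 1 and 0.11 with normexp. On corn oil replicate 3 a dim spike-in control read −6.97. It read −7.74, −7.79 and −7.60 on the chlorothalonil arrays and −7.68 and −7.62 on the other corn oil arrays. Whether this bears on Trib3 was not tested.

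Chac1 breaks down glutathione, and ATF4 is known to induce it. Of its 3 probes, the brightest gave −0.80, −1.07 and −1.22 with chlorothalonil, against −1.08, −1.12 and −0.996 with corn oil. The treated arrays spread on both sides of the controls, and the log2 fold change was 0.03 ± 0.12 (SE), with an interval from −0.26 to 0.33. It turned to −0.08 without chlorothalonil replicate 1 and also with normexp. A dimmer probe gave −4.60, −5.13 and −5.02 with chlorothalonil, against −6.59, −5.45 and −5.52 with corn oil. That probe was well above background on all 3 treated arrays and on 0 of 3 controls, so it was kept through the treated group and a higher value there is built into the choice. Against the higher, per control array, of its own signal and the lowest signal well above background, the treated mean was 1.31-fold. That ratio has no interval, so it is not a lower limit on a rise. The interval of the measured log2 fold change ran from 0.11 to 1.76. The measured fold change of that probe was 0.94 ± 0.34, with an adjusted p over all probes of 0.214, so it did not pass. It was 0.57 without corn oil replicate 1 and 0.17 with normexp. The faintest probe was not well above background on any array. The mean over the kept probes of Chac1 was 0.49, which includes the dimmer probe, and a difference between its probes was not tested.

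To show which regulatory letters lie near these genes, the 300 bases from 250 before to 50 after each start were searched on both strands, in RefSeq sequence of build GRCr8, which held all 10 genes. The C/EBP-ATF composite element, to which ATF4 binds, was searched as TGATGNAAN. It matched in 2 of the 10 windows, those of Chac1 and Trib3, and in 3.80% of 27457 promoters. The antioxidant response element, to which NRF2 binds, was searched as TGACNNNGC and matched in 1 of the 10, that of Phgdh, and in 12.2% of all promoters. Each stretch is printed in the direction of its gene, from RefSeq, with the match in capitals, and all 3 matches read as the searched letters on the opposite strand. The Chac1 stretch is chr3:126795943-126795991 on the plus strand, with the match beginning at base −168 relative to the gene start. The Trib3 stretch is chr3:161275537-161275565 on the minus strand, with the match beginning at base −22. The Phgdh stretch is chr2:188624751-188624779 on the minus strand, with the match beginning at base 21 of the transcript. No window of the 10 held both motifs. Matches describe the letters only.
Chac1: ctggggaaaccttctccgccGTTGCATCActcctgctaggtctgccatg
Trib3: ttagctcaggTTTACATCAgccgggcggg
Phgdh: gcccggggagGCGGAGTCAgcagagttta

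Beyond the 10, other enzymes of serine, glycine and folate metabolism held 1 larger change. Of 30 listed, 26 were measured, 1 rose, 0 fell and 25 did not pass, beside 3.15% of all features called in either direction. The gene that rose was Aldh1l1, cytosolic formyltetrahydrofolate dehydrogenase, which burns the folate-bound carbon to CO2 and makes NADPH. Its log2 signal was 6.06, 6.13 and 6.03 with chlorothalonil, against 4.20, 4.06 and 4.10 with corn oil. The groups stood far apart, with a log2 fold change of 1.95 ± 0.07 (SE), or 3.88-fold, and a limma adjusted p of 0.00101. It passed with each array left out, at 1.92 to 1.99. The median of the 26 was 0.17, against 0.00 over all features, and 20 lay above 0 and 6 below. Of the 26, 10 had an unadjusted p under 0.05, beside 6094 of 31098 features.

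Amino acid transporters and aminoacyl-tRNA synthetases known as ATF4 targets gave 1 call among 18 measured of 23. Of all features, 3.15% were called in either direction. Slc38a2, a sodium-coupled transporter of neutral amino acids that amino acid shortage is known to raise, fell. It gave 1.42, 1.196 and 1.27 with chlorothalonil, against 1.77, 1.94 and 1.87 with corn oil, without overlap. The log2 fold change was −0.57 ± 0.09 (SE), with a limma adjusted p of 0.0344. Its other probe was at −0.34 ± 0.11 and did not pass. The call was lost with each array left out, with adjusted p from 0.0689 to 0.116, and with the mean of both probes, at 0.0673. The median of the 18 was −0.01, with 8 above 0 and 10 below. Of the 7 other cytosolic synthetases limma called 0, with 1 at an unadjusted p under 0.05, beside 6094 of 31098 features.

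Among other stress genes that ATF4 is known to induce, 18 of 23 were measured and 0 passed in limma, with 3 at an unadjusted p under 0.05. Of all features, 3.15% passed in either direction, and 6094 of 31098 had an unadjusted p under 0.05. The smallest p of the list was that of Gdf15, a secreted stress factor that p53 is also known to induce. Its log2 signal was 0.92, 0.92 and 1.2 with chlorothalonil, against −0.24, 0.40 and −0.10 with corn oil. The groups did not overlap and the controls spread more widely than the treated arrays. The log2 fold change was 0.99 ± 0.19 (SE), or 1.99-fold, with a limma adjusted p of 0.0561, and it passed in 5 of 16 alternative settings. Without corn oil replicate 2 its fold change was 1.18, with an adjusted p of 0.0389. With any other array left out it did not pass, with adjusted p from 0.120 to 0.158 and a fold change of 0.86 without corn oil replicate 1. The list's median was 0.06, with 11 above 0 and 7 below.

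Upstream of ATF4, the eIF2 kinases, eIF2 and its exchange factor, and the stress sensors of the endoplasmic reticulum were all measured, 21 of 21. None of the 21 were called by limma, beside 3.15% of all features in either direction. An unadjusted p under 0.05 was reached by 2, beside 6094 of 31098 features. The smallest p of the list was that of Xbp1, a transcription factor of the unfolded protein response, at −0.40 ± 0.11 with an adjusted p of 0.137. Its log2 signal was 2.02, 1.92 and 2.00 with chlorothalonil, against 2.61, 2.26 and 2.27 with corn oil. All treated arrays were lower. The list's median was 0.07, against 0.00 over all features.

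**Figure D3:**
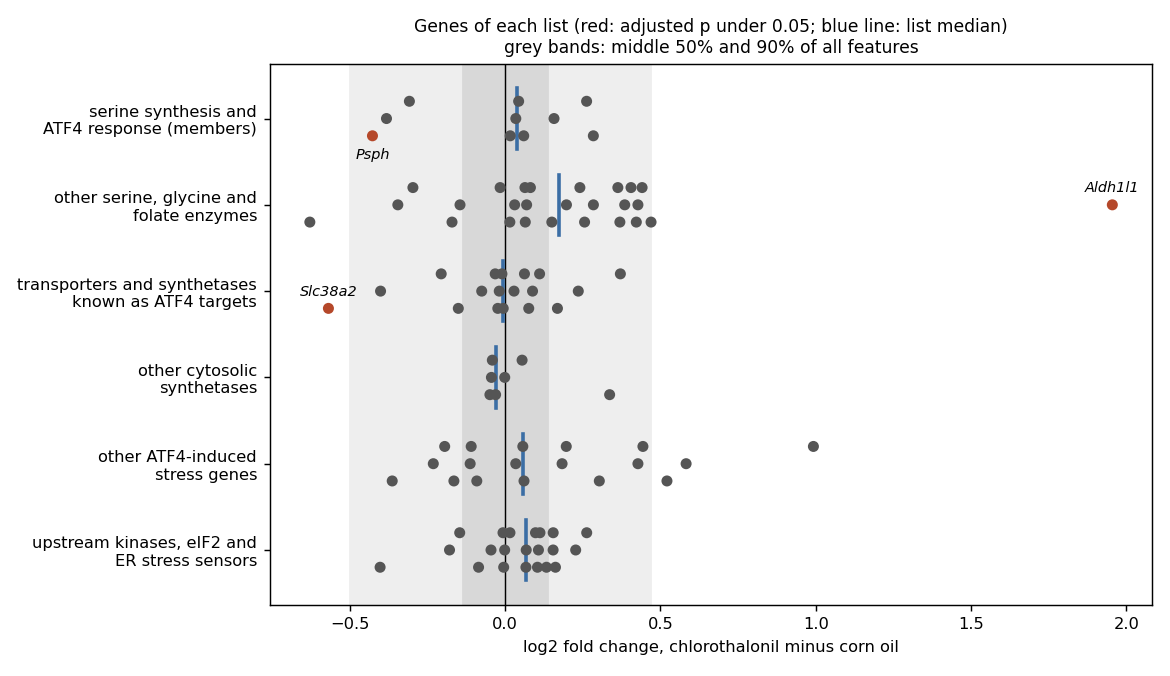
Log2 fold change, chlorothalonil minus corn oil (x axis), of each measured gene of the 10 and of the 5 pathway lists. Red points passed the threshold, blue lines are list medians, and grey bands hold the middle of all 31098 features. Aldh1l1 at 1.95 stands apart from every other point, and Psph and Slc38a2 are the red points below 0.

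**Figure D4:**
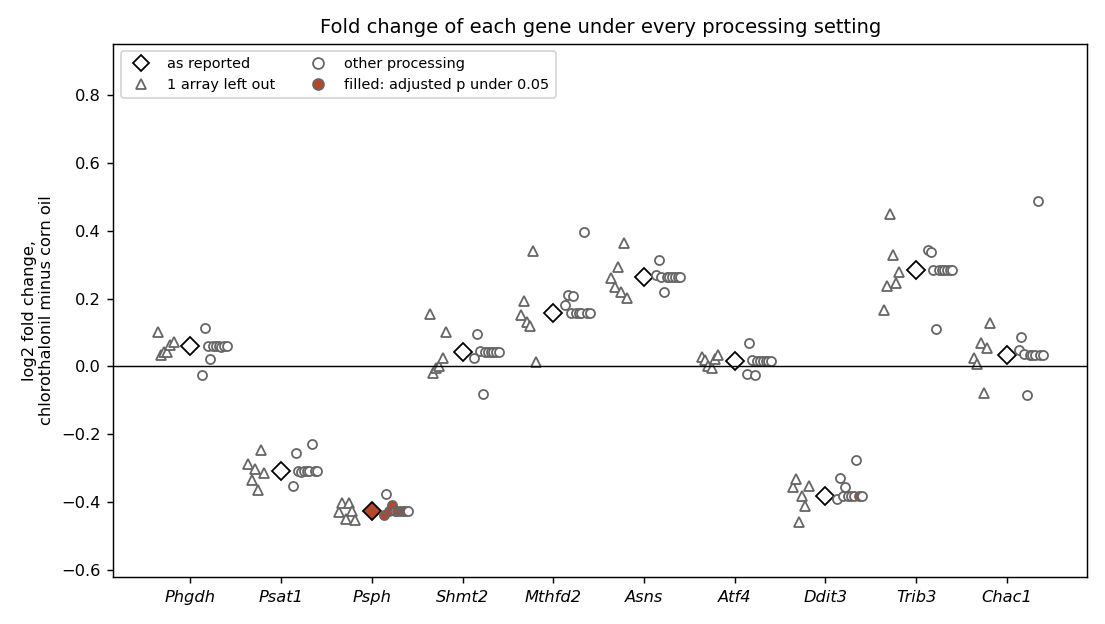
Log2 fold change (y axis) of each of the 10 genes as reported (diamonds), with 1 array left out (triangles) and with other processing (circles). Psph, Psat1 and Ddit3 lie below 0 throughout, while Phgdh, Shmt2, Atf4 and Chac1 fall on both sides of 0.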

How the data were processed

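RNA was labelled with Cy3 for 1-colour arrays, per the labels' protocols. The spot intensity was deposited on a linear scale, extracted with Agilent Feature Extraction 10.7, per the submitters' processing notes, and is background-subtracted and detrended within the array, per the file headers. The authors' deposited value table is a ratio, the processed signal over 1 constant per array within 1% for every probe compared. No label states this scaling, and no centring was found. The constants ran from 842 to 960, close to the 75th percentiles of the same arrays, from 840 to 958. The deposited table is thus near the scaling used here. Its column medians were 0.105, 0.105 and 0.106 for chlorothalonil, against 0.107, 0.109 and 0.112 for corn oil.

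Processed signals were taken to log2 and scaled to the 75th percentile of their array, without control or outlier spots (0 of the members' values). A probe was kept if well above background on all 3 arrays of a group and measured on at least 2 per group. Through accessions of a RefSeq table (GRCr8), 28206 of 61537 probes matched 1 gene, 0 several and 33331 none. GRCr8 coordinates are given only for the promoter stretches read from RefSeq, not for probes, since the headers name rn4. A gene is its brightest kept probe, and unnamed probes are features of their own. The test was limma 3.58.1 (R 4.3.3), with Benjamini-Hochberg adjustment over 31098 features or 39862 probes, and the code was tested on simulated data. The number of arrays limits the precision. The members and lists were chosen with earlier results of these data known. All members are named, with up to 3 genes past the threshold per pathway list (or the smallest p), and any marker gene past it. For 1 list the gene this names is not reported here. Alternatives were other scalings, the deposited table, normexp on the median spot and background signals (offset 50), other filters, outlier spots kept, probe means, a trend and robust prior, a replicate block and each array left out. The slide could not be fitted as a block. Same-numbered arrays of the groups had correlated deviations of 0.09, 0.02 and 0.05, against −0.08 to 0.04 for differently numbered ones. The same-numbered value was the highest for each chlorothalonil array, but all were small, so the numbers were not taken as pairs.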

Additional observations from a re-analysis of the deposited data

How the results depend on the processing

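Each group lay on its own slide and had 3 arrays. With no array left out, 980 features were called, 40.8% of them higher with chlorothalonil, and with median scaling 859 were, 53.1% of them higher. The count was 159 with no filter on dim probes and 0 with the replicate block, and 120 to 396 with 1 array left out. Among the 10 genes, and among their probes, the count of 1 became 0 with median scaling, with no filter and with the replicate block, 2 with the trend and robust prior, and 0 to 0 with 1 array left out. For Psph the log2 fold change stayed at −0.43 under the replicate block, with an adjusted p of 0.137, and with no filter, at 0.111. It was called in 7 of 16 alternatives, with adjusted p from 0.00910 to 0.137 and fold changes from −0.45 to −0.37. Those 7 include outlier spots kept and the mean of probes, which leave the values of Psph unchanged. They also include the deposited table, which holds the same signal over 1 constant per array. The count of other serine, glycine and folate enzymes was 2 with the trend and robust prior, 0 with the replicate block, where Aldh1l1 had an adjusted p of 0.0757, and 1 to 1 with 1 array left out. For ATF4-target transporters and synthetases it was 0 with no filter, with the mean of probes, with the replicate block and with each array left out. For the other cytosolic synthetases it was 1 with normexp. For other ATF4-induced stress genes it was 1 with median scaling, normexp, the filter on all 6 arrays and the trend and robust prior, and 0 to 1 with 1 array left out. The upstream list had 0 under every setting run. The cause of these moves was not tested, except that the filters and left-out arrays change how many probes or arrays are tested.

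Reversed signs occurred only for genes or probes that did not pass. With quantile normalization they were Phgdh (−0.025 and −0.029 on its probes) and Atf4 (−0.022). With normexp they were Shmt2 (−0.080), Atf4 (−0.025), Chac1 (−0.083), the second Phgdh probe (−0.140) and a dim Mthfd2 probe (−0.0034). Without corn oil replicate 1 they were the second Psat1 probe (0.068) and an Mthfd2 probe (−0.067), and Shmt2 was −0.019 and −0.0054 without corn oil replicates 2 and 3. Without chlorothalonil replicate 1 they were Atf4 (−0.0057) and Chac1 (−0.079). With 1 array left out, the highest values were 0.156 for Shmt2, 0.035 for Atf4, 0.129 for Chac1 and 0.240 for that Mthfd2 probe, and the lowest for the second Psat1 probe was −0.381.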

Other observations

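Of the 26 measured enzymes of serine, glycine and folate metabolism, the groups did not overlap for 11, with 8 higher and 3 lower with chlorothalonil, beside 27.6% of all features. Of these 11, Aldh1l1 alone passed the threshold in limma, and those named here were picked after their values were seen. Aldh1l2, the mitochondrial relative of Aldh1l1, was at −2.94, −2.85 and −2.92 with chlorothalonil, against −3.35, −3.53 and −3.05 with corn oil, a log2 fold change of 0.41 ± 0.13 (SE) with an adjusted p of 0.173. Gcsh, the carrier protein of the glycine cleavage system, was at 0.26 ± 0.08 with 0.178, and Glyctk, glycerate kinase, at 0.24 ± 0.06 with 0.117. Sardh, which turns sarcosine into glycine, was at 0.42 ± 0.11 with 0.126, and Gnmt, which makes sarcosine from glycine, at 0.37 ± 0.14 with 0.242. Bhmt, which remethylates homocysteine with betaine, was lower on every treated array, at 5.43, 5.63 and 5.57 with chlorothalonil, against 6.56, 6.002 and 5.96 with corn oil. Its log2 fold change was −0.63 ± 0.18, with an adjusted p of 0.135, and corn oil replicate 1 lay above the other controls. The other lower ones were Aldh18a1, which makes a proline precursor, at −0.30 ± 0.09 with 0.167, and Mtr, methionine synthase, at −0.15 ± 0.08 with 0.362. The remaining higher ones were Cbs, cystathionine beta-synthase, at 0.15 ± 0.08 with 0.354, and Dao, which oxidises D-amino acids, at 0.20 ± 0.12 with 0.433.

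Slc7a11, the cystine importer that both ATF4 and NRF2 are known to induce, was not well above background on all 3 arrays of either group and was not tested. The same held for Slc7a5, Slc7a3, Slc1a4, Fgf21, Stc2 and Pycr1.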
